A study of Homo sapiens with 9 samples.

Results

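The 10 genes described here are known as targets or partners of the transcriptional coactivator YAP, and their mRNA was measured in cells treated with 2 herbal extracts. They are CCN1 (older name CYR61), CCN2 (older name CTGF), ANKRD1, AXL, CRIM1, LATS2, AMOTL1, AMOTL2, AJUBA and TEAD1. They were chosen by symbol with earlier results of these data known, as were the gene lists set beside them. Counts of these genes set against all genes are therefore a description and no independent test. Each Ensembl identifier of the count table was matched to its symbol. The 10 genes are part of 60675 genes in the table, and all 10 were among the 18310 genes that passed the filter on low counts. The cells were SW1783, an established human astrocytoma line, and mRNA was sequenced in 9 libraries 24 h after treatment. The vehicle group received DMSO and has 3 libraries, replicates 1 to 3. Its DMSO is 0.1% by the labels of the samples and 2% by the design text of the series, which could not be settled, and no DMSO share is labelled for treated cells. There are 6 treated groups: Poria Cocos ethanol extract and Atractylodis Rhizoma ethanol extract, each at a dose of 20, 100 or 500 µg/mL. Every treated group is a single library that carries the replicate number 2. All 9 titles carry the same batch letter. The sample names of the vehicle libraries begin differently from those of the treated libraries, and what the beginnings stand for is not given. Whatever sets these series of names apart cannot be told apart from treatment. Nothing in the labels says that replicates came from separate cultures, so each p-value covers only the spread among these libraries, which may be technical.

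YAP and its relative TAZ are coactivators that shuttle between the cytoplasm and the nucleus. The LATS kinases of the Hippo pathway phosphorylate both proteins and keep them out of the nucleus, and in the nucleus they bind DNA through the TEAD factors. Cell spreading, actin tension, serum factors and low cell density favour the nuclear form, and CCN1, CCN2 and ANKRD1 are the targets most often read as its output. LATS2, the AMOTL genes and AJUBA are targets that also act on the pathway itself. In gliomas and other tumours of the nervous system the pathway is studied for its part in growth and invasion.

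Library totals lay between 40269728 and 48905600 counts, and mitochondrial genes took between 5.38% and 6.97% of them. The TMM scaling factors were 0.964 to 0.975 in vehicle and 1.00 to 1.03 in the treated libraries, so that vehicle and treated libraries also differ in composition. With scaling by library totals alone the median gene was 0.08 higher in treated than in vehicle libraries on the log2 scale, against 0.01 with TMM. The astrocyte genes GFAP, S100B, AQP4 and ALDH1L1 were at or near 0 in every library, at no more than 0.178 CPM (counts scaled to a common library total), whereas vimentin (VIM) stood at 5987 ± 164 CPM (SD, n = 3) in vehicle. The other astrocyte markers listed lay between, with vehicle means of 83.8 CPM for SOX9, 21.4 for SLC1A3, 6.31 for NES and 0.203 for SLC1A2.

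Per length of transcript, the 10 genes covered a wide range in vehicle. CCN1 was the highest at 514 ± 5.21 TPM (counts per length of the gene's exons, scaled to a common total; SD, n = 3), followed by AXL at 450.4 ± 11.8, CCN2 at 295 ± 11.2, CRIM1 at 158 ± 2.01 and TEAD1 at 74.0 ± 1.22. AJUBA at 43.9 ± 1.46, AMOTL2 at 30.1 ± 0.71, AMOTL1 at 26.6 ± 0.12, ANKRD1 at 23.9 ± 1.9 and LATS2 at 23.3 ± 0.66 TPM made up the lower end. Of the neighbours in this order, only ANKRD1 and LATS2 overlapped within 1 SD.

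The data show 3 patterns among the 10 genes. CCN2, ANKRD1, CRIM1, AXL, LATS2 and AMOTL1 were lower in all 6 treated libraries than in any vehicle library, and CCN2 had the largest fall. Of all genes tested, 13.7% had every treated library below every vehicle library, and 12.4% had every one above. CCN1 split by extract, above vehicle in the 3 Poria libraries and below it in the 3 Atractylodis libraries. AMOTL2 was lowest with Atractylodis at 100 and 500 µg/mL, AJUBA was above vehicle in 4 treated libraries and below it with Atractylodis at 500 µg/mL, and TEAD1 stayed within a narrow range.

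**Figure D1:**
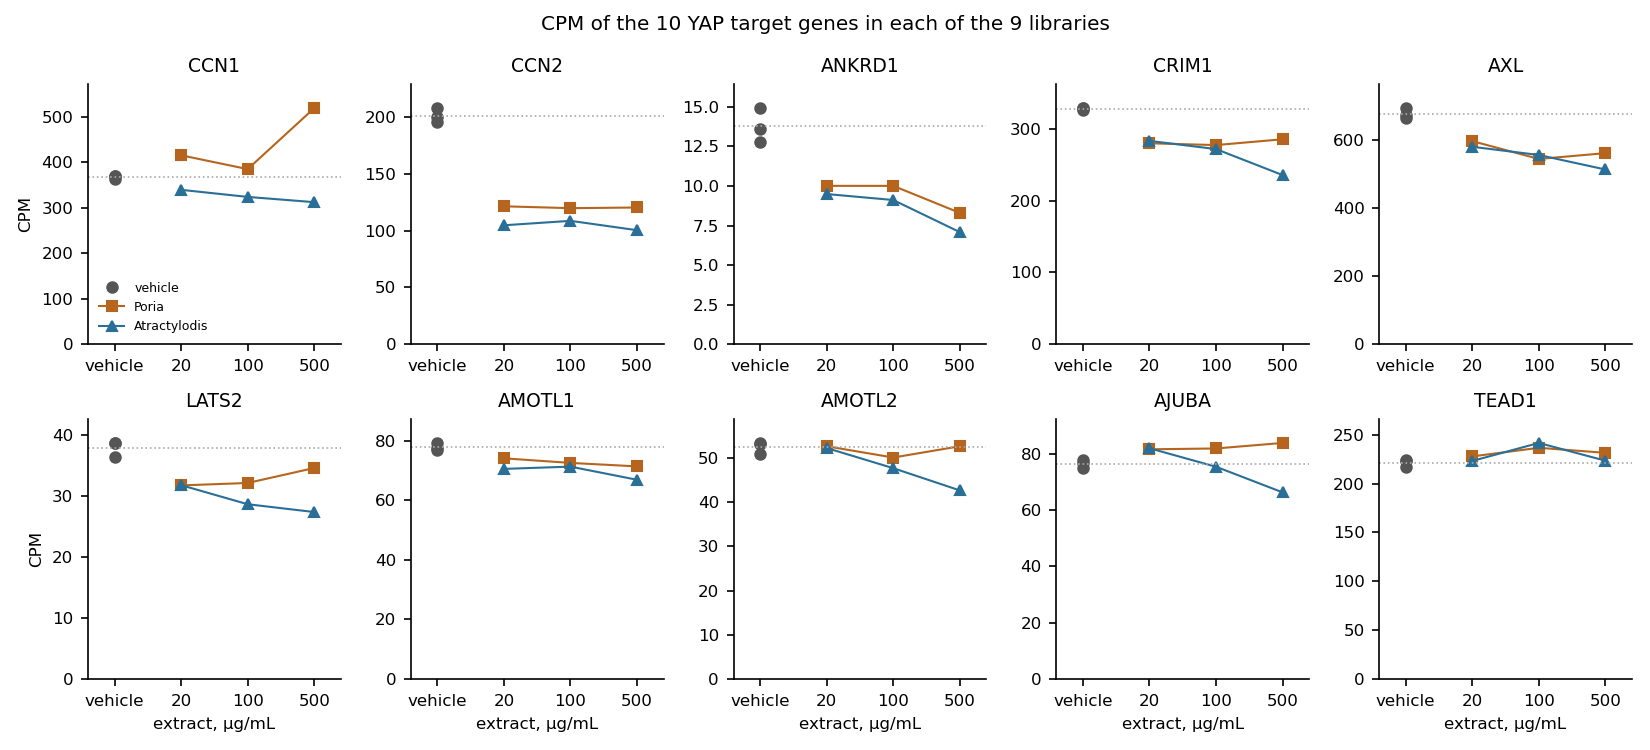
CPM of the 10 genes on the vertical axis (1 panel a gene, each axis from 0) in vehicle and at 20, 100 and 500 µg/mL of each extract on the horizontal axis; every point is 1 library, lines join the doses of an extract, and the dotted line is the mean of the 3 vehicle libraries. CCN2 drops from 195 to 208 CPM in vehicle to 100.3 to 121 CPM in the treated libraries, while CCN1 reaches 519.6 CPM with Poria at 500 µg/mL and 313 CPM with Atractylodis at that dose.

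CCN1 and CCN2 encode secreted matricellular proteins that bind integrins and growth factors. CCN1 (ENSG00000142871, GRCh38 chromosome 1, 85580761 to 85583962, plus strand) had 369.6, 363 and 369 CPM in the vehicle libraries. With Poria it had 416, 385 and 519.6 CPM at 20, 100 and 500 µg/mL. With Atractylodis it had 339.8, 324 and 313 CPM at the same doses. All 3 Poria libraries were thus above and all 3 Atractylodis libraries below the range of vehicle, and the Poria values did not follow the order of the doses. The vehicle mean was 367 ± 3.98 CPM (SD, n = 3), against which Poria at 500 µg/mL stood at 141.5% and Atractylodis at 500 µg/mL at 85.1%.

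CCN2 (ENSG00000118523, GRCh38 chromosome 6, 131948176 to 131951373, minus strand) had 199, 208 and 195 CPM in vehicle. It had 121, 119.6 and 120.2 CPM with Poria at 20, 100 and 500 µg/mL, and 105, 109 and 100.3 CPM with Atractylodis. The lowest dose of either extract already held nearly the whole fall, and the higher doses added little. Against the vehicle mean of 201 ± 6.34 CPM (SD, n = 3) the Poria libraries stood at 60.4%, 59.6% and 59.9%, and the Atractylodis libraries at 52.1%, 54.1% and 50.0%. In RNA of whole cultures, less RNA in each cell and fewer cells that carry it cannot be told apart. An antisense gene, AL133346.1, overlaps 195 bases of CCN2 and had 1 to 22 counts, against 4360 to 8413 counts of CCN2, and whether counting used strand is not given in the sources used here.

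Within a library, the ratio of the pair does not depend on scaling. CCN1 counts per CCN2 count were 1.85, 1.75 and 1.89 in vehicle (mean 1.83 ± 0.08, SD, n = 3). They were 3.43, 3.22 and 4.32 with Poria at 20, 100 and 500 µg/mL, and 3.25, 2.99 and 3.12 with Atractylodis. The 6 treated libraries did not overlap with vehicle and stood at 1.63-fold to 2.36-fold its mean. The ratio shows that the pair changed unequally and not which of them moved.

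**Figure D2:**
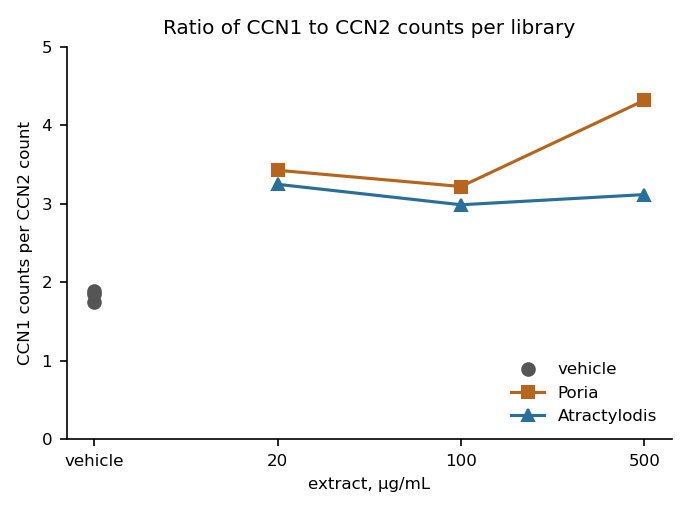
CCN1 counts per CCN2 count on the vertical axis, from 0, in the 3 vehicle libraries and in the library of each dose of Poria and Atractylodis (horizontal axis, µg/mL). Vehicle lies between 1.75 and 1.89, and the treated libraries lie between 2.99 and 4.32, the highest with Poria at 500 µg/mL.

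ANKRD1 (ENSG00000148677, GRCh38 chromosome 10, 90912096 to 90921276, minus strand) encodes a nuclear and sarcomeric ankyrin repeat protein, best known from stretched heart muscle. It had 13.6, 12.8 and 14.9 CPM in vehicle, a mean of 13.8 ± 1.08 (SD, n = 3). With Poria it had 10.0, 10.0 and 8.30 CPM at 20, 100 and 500 µg/mL, and with Atractylodis 9.49, 9.11 and 7.08 CPM. It was lower in every treated library than in any vehicle library, and within each extract the top dose gave the lowest value, 60.3% and 51.4% of the vehicle mean.

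Among the 7 of the 10 genes with a promoter to search, CCN2 and ANKRD1 have the most matches to the TEAD core letters. Their sequences are shown, with that of AMOTL2, which has 1 match. The motif CATTCC was searched on both strands in the 250 bases before each RefSeq start site (GRCh38.p14). Promoters were matched for 7 of the 10 genes (CCN2, ANKRD1, AXL, LATS2, AMOTL1, AMOTL2 and AJUBA). CCN2 has 3 matches, whose first bases lie 169, 104 and 95 bases before the start, and ANKRD1 has 2, at 220 and 128 bases. AMOTL2, AJUBA and AXL each have 1 match, in the window of their second listed start site at 69, 59 and 212 bases, and LATS2 and AMOTL1 have none in these windows. Of 35114 promoter windows of the same length, 11.9% hold at least 1 match and 0.94% hold at least 2. Below are the CCN2 window (chr6:131951374-131951622, minus strand, written 5′ to 3′ on the gene's strand, without the last base, which GENCODE 29 puts in the first exon) and 30 bases around each ANKRD1 match (chr10:90921290-90921319 and chr10:90921198-90921227, minus strand) and the AMOTL2 match (chr3:134374499-134374528, minus strand). Capitals mark CATTCC or its reverse complement.
CCN2: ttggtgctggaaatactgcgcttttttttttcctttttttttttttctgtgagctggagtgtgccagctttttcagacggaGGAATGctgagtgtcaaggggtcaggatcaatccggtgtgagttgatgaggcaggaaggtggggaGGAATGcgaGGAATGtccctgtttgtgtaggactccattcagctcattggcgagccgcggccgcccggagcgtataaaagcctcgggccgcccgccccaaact
ANKRD1, upstream match: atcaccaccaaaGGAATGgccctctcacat
ANKRD1, match nearer the start: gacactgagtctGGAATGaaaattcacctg
AMOTL2: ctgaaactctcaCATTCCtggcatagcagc
In CCN2 the pair nearest the start is separated by only 3 bases, and the ANKRD1 match nearer the start and the AMOTL2 match lie in bases that GENCODE 29 counts as exon. The motif TGANTCA of AP-1 factors was found in 1 of the 7 genes, ANKRD1, at 195 bases, and in 6.57% of all windows. The CArG box of serum response factor was found in 0 of the 7 and in 1.16% of all windows. A match describes the letters of the window and not a bound site, and a link between matches and changes was not tested.

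AXL and CRIM1 encode membrane proteins. AXL (ENSG00000167601, GRCh38 chromosome 19, 41219203 to 41261766, plus strand), a receptor tyrosine kinase for GAS6, had 673, 662 and 692 CPM in vehicle. With Poria it had 596, 543 and 560.3 CPM at 20, 100 and 500 µg/mL, and with Atractylodis 579, 555 and 512 CPM. The treated libraries lay between 75.8% and 88.1% of the vehicle mean of 676 ± 15.3 CPM (SD, n = 3), with no overlap. CRIM1 (ENSG00000150938, GRCh38 chromosome 2, 36355926 to 36551135, plus strand), a transmembrane protein that binds bone morphogenetic proteins, had 328, 329 and 326 CPM in vehicle. It had 279.7, 277 and 285 CPM with Poria at the rising doses and 283, 272 and 235 CPM with Atractylodis. The Poria values did not order by dose, whereas Atractylodis at 500 µg/mL was the lowest library at 71.9% of the vehicle mean of 328 ± 1.297 CPM (SD, n = 3).

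LATS2, AMOTL1, AMOTL2 and AJUBA encode proteins that act back on YAP or its kinases. LATS2 (ENSG00000150457, GRCh38 chromosome 13, 20973032 to 21061547, minus strand), a kinase that phosphorylates YAP, had 38.7, 36.3 and 38.6 CPM in vehicle. It had 31.7, 32.1 and 34.6 CPM with Poria and 31.7, 28.6 and 27.3 CPM with Atractylodis at 20, 100 and 500 µg/mL. All treated values were below vehicle. With rising dose the single Poria libraries lay nearer the vehicle mean of 37.9 ± 1.31 CPM (SD, n = 3) and the Atractylodis libraries further from it. Neither slope within the treated libraries passed the test (0.06 and -0.11, edgeR adjusted p = 0.438 and 0.11), nor did the difference between the dose trends (edgeR adjusted p = 0.137). AMOTL1 (ENSG00000166025, GRCh38 chromosome 11, 94706431 to 94876753, plus strand), an angiomotin-like junction protein that binds YAP, had 79.2, 76.7 and 77.6 CPM in vehicle. It had 74.0, 72.5 and 71.3 CPM with Poria and 70.5, 71.2 and 66.8 CPM with Atractylodis, a small fall to between 85.8% and 95.1% of the vehicle mean.

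AMOTL2 (ENSG00000114019, GRCh38 chromosome 3, 134355874 to 134375479, minus strand), its relative, had 53.4, 53.2 and 51.0 CPM in vehicle. It had 52.7, 50.1 and 52.7 CPM with Poria and 52.3, 47.7 and 42.7 CPM with Atractylodis. Poria at 20 and 500 µg/mL lay within the vehicle range and Poria at 100 µg/mL just below it, and Atractylodis was below it at 100 and 500 µg/mL. AJUBA (ENSG00000129474, GRCh38 chromosome 14, 22971174 to 22982642, minus strand), a LIM protein that restrains LATS kinases, had 74.8, 77.9 and 76.8 CPM in vehicle. It had 81.5, 81.8 and 83.8 CPM with Poria and 81.9, 75.3 and 66.3 CPM with Atractylodis. The 3 Poria libraries and Atractylodis at 20 µg/mL were above vehicle, and Atractylodis at 500 µg/mL was below it.

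TEAD1 (ENSG00000187079, GRCh38 chromosome 11, 12674591 to 12944483, plus strand), a DNA-binding partner of YAP, had 223, 217 and 224 CPM in vehicle. It had 228, 237 and 231 CPM with Poria and 223, 241 and 223 CPM with Atractylodis. Its levels lay between 101% and 109% of the vehicle mean, and the groups overlapped. It passed no test with TMM scaling, and with library totals alone it was called higher in treated libraries (0.13 on the log2 scale, adjusted p = 0.0161).

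The first comparison asked whether the genes differ between the 6 treated libraries and the 3 vehicle libraries, whatever the extract or dose. CCN2 was lower by 0.84 on the log2 scale (SE 0.06, 95% interval -0.96 to -0.72, edgeR adjusted p = 5.46e-07). ANKRD1 fell by 0.61 (SE 0.09, adjusted p = 0.000213), LATS2 by 0.29 (SE 0.06, 0.00221), AXL by 0.28 (SE 0.04, 0.000194), CRIM1 by 0.27 (SE 0.05, 0.000755) and AMOTL1 by 0.13 (SE 0.04, 0.013). These 6 of 10 were lower and 0 were higher, against 13.3% lower and 12.0% higher of all genes tested, and 0 were higher at an unadjusted p under 0.05 or with DESeq2 or limma-voom. The median of the 10 was -0.20, and that of all genes was 0.01. CCN1 had a mean difference of 0.06 with a wide interval, -0.33 to 0.45 (adjusted p = 0.831), and its 2 extracts lay on either side of vehicle. The same 6 genes had all treated libraries below all vehicle libraries, which 13.7% of genes had, and 0 of the 10 had all above, which 12.4% of genes had.

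Across genes the treated-against-vehicle change ran with GC content (Spearman's rank correlation -0.30 over the genes tested), and genes are not independent replicates. With each library corrected for GC content and length, the same 6 genes were lower, but the correction ended other calls, given with the trends and slopes. AMOTL1 was no longer called with library totals alone (-0.06, adjusted p = 0.199) or without vehicle replicate 1 (-0.12, 0.0728).

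The dose trend, a straight line over vehicle and the rising doses in steps of 5-fold, asked how each gene moves per step. With Poria, CCN1 rose by 0.14 per step (SE 0.02, edgeR adjusted p = 0.0012). ANKRD1 fell by 0.23 (SE 0.04, 0.000543), AXL by 0.10 (SE 0.02, 0.00169) and CRIM1 by 0.08 (SE 0.02, 0.0104). CCN2 had a slope of -0.25 with a larger error (SE 0.09, adjusted p = 0.111), and its 3 Poria values were level with each other. DESeq2 and limma-voom called CCN2 lower (adjusted p = 0.0321 and 0.0192). So by edgeR 1 of 10 rose, against 9.19% of all genes tested, and 3 of 10 fell, against 11.7%. The CCN1 call rests on 1 library: without Poria at 500 µg/mL the slope was 0.06 (adjusted p = 0.196). The CRIM1 call ended with library totals alone (0.0593), and with dose itself in place of the step CCN1 was the 1 gene called.

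With Atractylodis, 8 of 10 genes fell with the trend, against 10.6% of all genes tested, and 0 rose, against 8.54%, also at an unadjusted p under 0.05 and with DESeq2 or limma-voom. The slopes per step were -0.34 for CCN2 (SE 0.09, edgeR adjusted p = 0.0497), -0.31 for ANKRD1 (SE 0.04, 0.000206), -0.15 for LATS2 (SE 0.03, 0.00133) and -0.14 for CRIM1 (SE 0.02, 0.000398). AXL fell by 0.13 (0.000586), AMOTL2 by 0.09 (0.0049), CCN1 by 0.08 (0.0404) and AMOTL1 by 0.07 (0.00873). AJUBA at -0.06 (0.075) and TEAD1 at 0.02 (0.537) were not called. The median slope of the 10 was -0.11 with Atractylodis and -0.05 with Poria, and that of all genes was 0.00 with either. CCN1 and CCN2 lay close to the threshold: leaving out any 1 vehicle library ended both calls (adjusted p between 0.0809 and 0.121), as did leaving out Atractylodis at 100 or 500 µg/mL. The CCN1 call also ended without either library at 20 µg/mL, and the CCN2 call without Poria at 100 µg/mL. Without Atractylodis at 500 µg/mL the AMOTL1 and AMOTL2 calls ended too (adjusted p = 0.124 and 0.253). The GC and length correction ended the calls of CCN1 (0.113) and CCN2 (0.0629), library totals alone ended those of CCN1 (0.123), CCN2 (0.0506) and AMOTL1 (0.0523), and without a filter CCN2 had 0.0791. With dose itself in place of the step 0 of the 10 were called.

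**Figure D3:**
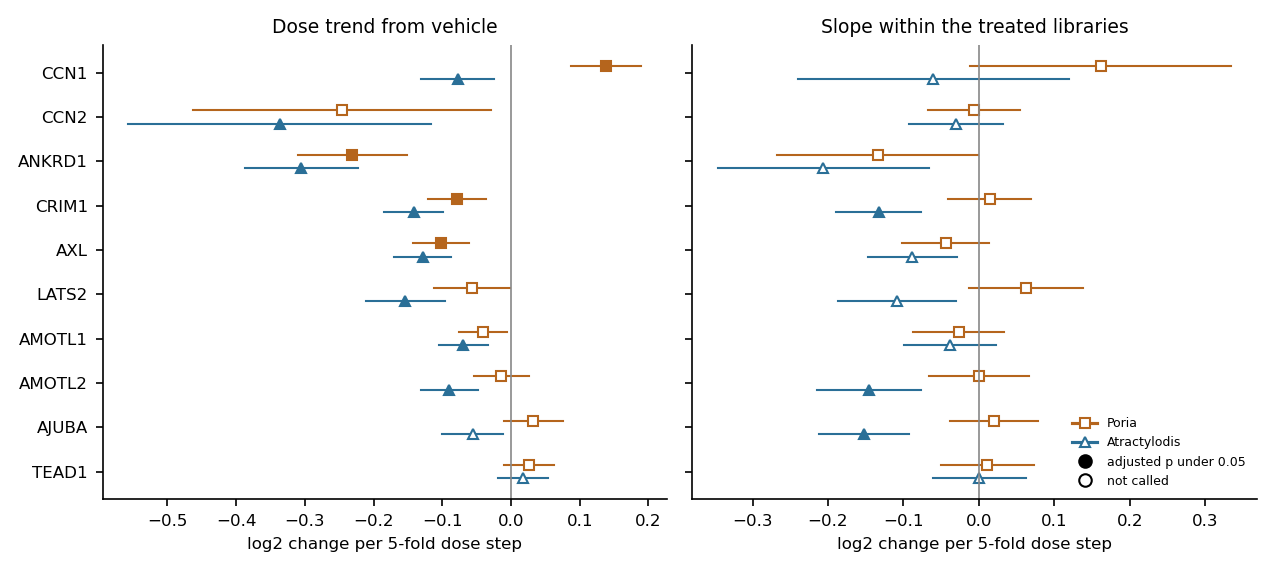
Log2 change per 5-fold dose step (horizontal axis) of the 10 genes for Poria (squares) and Atractylodis (triangles), on the left for the trend that includes vehicle and on the right for the slope within the 3 treated libraries of each extract; bars are 95% intervals, and filled symbols have an adjusted p under 0.05. CCN1 is 0.14 with Poria and -0.08 with Atractylodis on the left, and CCN2 has slopes of -0.01 and -0.03 on the right against -0.25 and -0.34 on the left.

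Whether the extracts differ in slope was tested in the same fit. CCN1 differed by 0.22 per step, higher with Poria (SE 0.03, 95% interval 0.16 to 0.27, edgeR adjusted p = 0.00317). It was the 1 member called higher, against 0.486% of all genes tested, and 0 were called lower, against 0.666%, nor was any lower at an unadjusted p under 0.05 or with DESeq2 or limma-voom. Without Poria at 500 µg/mL the difference was 0.15 (adjusted p = 0.118), and without Atractylodis at 500 µg/mL it was 0.23 (0.311). In either of these fits 0 of all genes tested were called, so the lost call is not particular to CCN1. For the other 9 genes the point estimate was also above 0, from 0.01 for TEAD1 to 0.10 for LATS2, and none passed the test. The interval for CCN2, -0.15 to 0.33, does not show that the extracts act alike on it.

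Slopes within the treated libraries leave the vehicle level out, so they show whether more extract meant more change. For Poria 0 of 10 genes were called by edgeR, against 2.45% of all genes in either direction, and 1 gene, ANKRD1, had an unadjusted p under 0.05 (-0.13, unadjusted p = 0.0482), which 15.4% of all genes had. CCN1 had a slope of 0.16 (SE 0.07, adjusted p = 0.354), which was called without Poria at 20 µg/mL (0.43) or at 100 µg/mL (0.16). In either fit the line runs exactly through the remaining Poria libraries. Its error then comes from the vehicle and Atractylodis libraries alone, so these calls do not measure the spread of the Poria values. With DESeq2 and with limma-voom 0 were called as well. For Atractylodis 3 of 10 fell, against 2.54% of all genes: AJUBA by 0.15 per step (SE 0.03, adjusted p = 0.0039), AMOTL2 by 0.15 (SE 0.03, 0.0133) and CRIM1 by 0.13 (SE 0.03, 0.00704). Those calls ended without Atractylodis at 500 µg/mL (adjusted p = 0.321 for AMOTL2, 0.267 for AJUBA and 0.564 for CRIM1), and those of AMOTL2 (0.412) and AJUBA (0.17) also without Atractylodis at 20 µg/mL. These fits likewise leave no scatter of the Atractylodis libraries around their line. The AMOTL2 call ended with the GC and length correction as well (0.0756). ANKRD1 had the steepest slope at -0.21 and was not called (SE 0.07, adjusted p = 0.0862). CCN2, with the largest step from vehicle, had slopes of -0.01 (SE 0.03) with Poria and -0.03 (SE 0.03) with Atractylodis.

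At 500 µg/mL each extract was set against vehicle, 1 library against 3, on the assumption that the single treated library has the spread seen among vehicle libraries. The p-values therefore set that library against vehicle, and the extract's effect and that of the library cannot be told apart. With Poria, CCN1 was higher by 0.50 (SE 0.04, edgeR adjusted p = 1.64e-10) and AJUBA by 0.13 (SE 0.04, 0.0163). CCN2 fell by 0.74 (SE 0.04, 2.17e-12), ANKRD1 by 0.73 (SE 0.09, 1.41e-06), AXL by 0.27, CRIM1 by 0.20 and AMOTL1 by 0.13. That is 2 of 10 higher, against 14.5% of all genes, and 5 lower, against 17.2%. The small AJUBA and AMOTL1 calls ended without vehicle replicate 1 (adjusted p = 0.0842 and 0.0807) and with DESeq2 (0.352 and 0.368).

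With Atractylodis at 500 µg/mL 9 of 10 genes were lower, against 16.6% of all genes, and 0 were higher, against 14.5%, also at an unadjusted p under 0.05 and with DESeq2 or limma-voom. CCN2 fell by 1.00 (SE 0.04, edgeR adjusted p = 8.22e-15), ANKRD1 by 0.96 (SE 0.10, 6.5e-08), CRIM1 by 0.48 (SE 0.04, 9.01e-10) and LATS2 by 0.47 (SE 0.06, 9.28e-07). AXL fell by 0.40, AMOTL2 by 0.30, CCN1 by 0.23, AMOTL1 by 0.22 and AJUBA by 0.21. TEAD1 was the gene not called (0.01, adjusted p = 0.848). Leaving out any 1 of the other 8 libraries left the 9 calls in place. DESeq2 called 6 of them: AMOTL1 (0.0715) and AJUBA (0.0889) were lost, and ANKRD1 was given no adjusted p. The median of the 10 was -0.35 with Atractylodis and -0.13 with Poria, next to 0.01 and 0.00 for all genes.

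Poria was then set against Atractylodis at matched doses, with dose as a block over the 6 treated libraries, a comparison added after the values had been seen. CCN1 was higher with Poria by 0.42 (95% interval 0.09 to 0.76, edgeR unadjusted p = 0.0243, adjusted p = 0.445) and CCN2 by 0.21 (0.11 to 0.30, unadjusted p = 0.000253, adjusted p = 0.123). No member passed the adjusted threshold in either direction, against 0.0218% of all genes higher and 0.0273% lower. At an unadjusted p under 0.05, 5 of 10 were higher with Poria (CCN1, CCN2, LATS2, AJUBA and AMOTL2) and 0 were lower, where 9.64% of all genes had such a p in either direction. DESeq2, which gave an adjusted p for 4 of the 10, and limma-voom also called 0. Without either library at 500 µg/mL CCN1 was called (0.27, adjusted p = 0.000634 without Poria and 0.000828 without Atractylodis), the pair at 500 µg/mL being the one that differs most from the others. Dose by dose, 7, 8 and 10 of the 10 genes were higher with Poria at 20, 100 and 500 µg/mL, where 50.3%, 49.4% and 49.9% of all genes were. The median difference of the 10 was 0.04, 0.10 and 0.27, with 1 library on each side and no test. The CCN1 difference was 0.29, 0.25 and 0.73, and that of AJUBA was -0.01, 0.12 and 0.34.

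Genes with the levels most like those of CCN1 and CCN2 were found by Pearson's r of log2 CPM over the 9 libraries, among 515 well-expressed genes that varied, as a description of libraries that share their vehicle group and doses. For CCN1 they were the RNA gene ALDH1A3-AS1 (r = 0.93), the scaffold gene MALT1 (0.91), the kinase gene WNK4 (0.91), the centromere chaperone gene HJURP (0.84) and the guanine deaminase gene GDA (0.82). ALDH1A3-AS1 had 71.1 CPM with Poria at 500 µg/mL and 46.1 CPM on average in vehicle, and without a stated strand setting its reads cannot be told apart from those of its partner. For CCN2 they were ATP5F1D (r = 0.99), a subunit of ATP synthase, the growth factor gene HBEGF (0.99), DLC1 (0.98), the ubiquitin ligase gene NEDD4L (0.98) and the coactivator gene PPRC1 (0.98). HBEGF fell from 42.8 CPM on average in vehicle to between 25.2 and 31.0 CPM in the treated libraries, the same shape of step as CCN2.

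Another 15 published YAP targets were tested beside these genes. With the Poria trend 2 rose and 2 fell, near the 9.19% and 11.7% of all genes, and with the Atractylodis trend 0 rose and 5 fell, against 8.54% and 10.6%. At 500 µg/mL of Poria 3 were higher and 3 lower, against 14.5% and 17.2%, with a median of 0.02. At 500 µg/mL of Atractylodis 0 were higher and 10 lower, against 14.5% and 16.6%, with a median of -0.17. F3, which encodes tissue factor, resembled CCN1 in having slopes that differ between the extracts (0.26 per step, edgeR adjusted p = 0.0184). It had 151 ± 1.48 CPM in vehicle, and 126, 101 and 91.8 CPM with Atractylodis at 20, 100 and 500 µg/mL. With Poria it had 134, 134 and 171 CPM, so unlike CCN1 it was below vehicle at 20 and 100 µg/mL. Its Poria trend was not called (0.03, edgeR adjusted p = 0.648). CCDC80, a matrix protein gene, fell with Atractylodis by 0.12 per step (0.000378), and its slopes also differed (0.08, 0.0388). FJX1, a secreted regulator of cell polarity, fell with both, by 0.16 (0.000901) and 0.17 (0.000801). GADD45A, a stress gene, rose with Poria by 0.10 (0.00414) and had a slope of -0.0016 with Atractylodis (0.975).

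The machinery of the pathway was measured on the same libraries, 27 genes of it. YAP1 itself had 153 ± 3.00 CPM (SD, n = 3) in vehicle and 147 to 163 CPM in the treated libraries, and WWTR1, which encodes TAZ, had 77.7 ± 1.82 CPM and 70.9 to 83.5 CPM. Neither passed any of the tests. Unlike TEAD1, TEAD3 and TEAD4 were called lower in treated than in vehicle libraries and with the Atractylodis trend, and TEAD2 was not called. TEAD4 had 17.2 ± 0.44 CPM (SD, n = 3) in vehicle and 11.8 to 14.6 CPM in the treated libraries. With Poria 6 of the 27 rose and 4 fell, against 9.19% and 11.7% of all genes, and with Atractylodis 2 rose and 6 fell, against 8.54% and 10.6%, so that the 4 and the 2 are near the background. NF2, whose product merlin activates the LATS kinases, fell from 139 ± 0.94 CPM to between 91.7 and 107 CPM (0.46 lower in treated than in vehicle libraries, edgeR adjusted p = 1.18e-06). WWC1, which encodes the merlin partner KIBRA, had 50.2 ± 2.47 CPM in vehicle, 44.5 CPM with Poria and 29.7 CPM with Atractylodis at 500 µg/mL, and its slopes differed (0.15, 0.00974). WTIP, an Ajuba-family gene, fell with both extracts (adjusted p = 0.0147 and 0.00257), and STK3, an upstream kinase gene, rose with Poria (0.11, 0.00218).

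Genes that answer to serum response factor and its actin-sensing MRTF partners fell together. Of 16 such genes, 16 were lower in treated than in vehicle libraries, with a median of -0.35, and 14 and 15 fell with the Poria and Atractylodis trends, where 13.3%, 11.7% and 10.6% of all genes were lower. ACTG1, a cytoplasmic actin, fell by 0.19 and 0.16 per step (edgeR adjusted p = 1.77e-05 and 0.000178) and CNN2, a calponin, by 0.17 and 0.20 (5.27e-05 and 3.36e-05). MYH9, the non-muscle myosin heavy chain, and TPM1, a tropomyosin, fell by 0.13 each with Poria (0.000344 and 0.000243).

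Of 10 TGF-beta targets, 9 fell with Poria, 5 with Atractylodis and 8 between treated and vehicle libraries, against 11.7%, 10.6% and 13.3% of all genes. Within the treated libraries 1 and 2 of the 10 fell with Poria and Atractylodis, against 1.25% and 2.54% of all genes. COL1A1, a chain of type I collagen, fell from 4252 ± 44.6 CPM to 3108 CPM with Poria and 3234 CPM with Atractylodis at 500 µg/mL. PMEPA1, a feedback inhibitor of TGF-beta signalling, fell by 0.17 and 0.12 per step (edgeR adjusted p = 0.000182 and 0.00233), TGFB1I1 by 0.13 and 0.10, and SKI by 0.10 and 0.08.

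**Figure D4:**
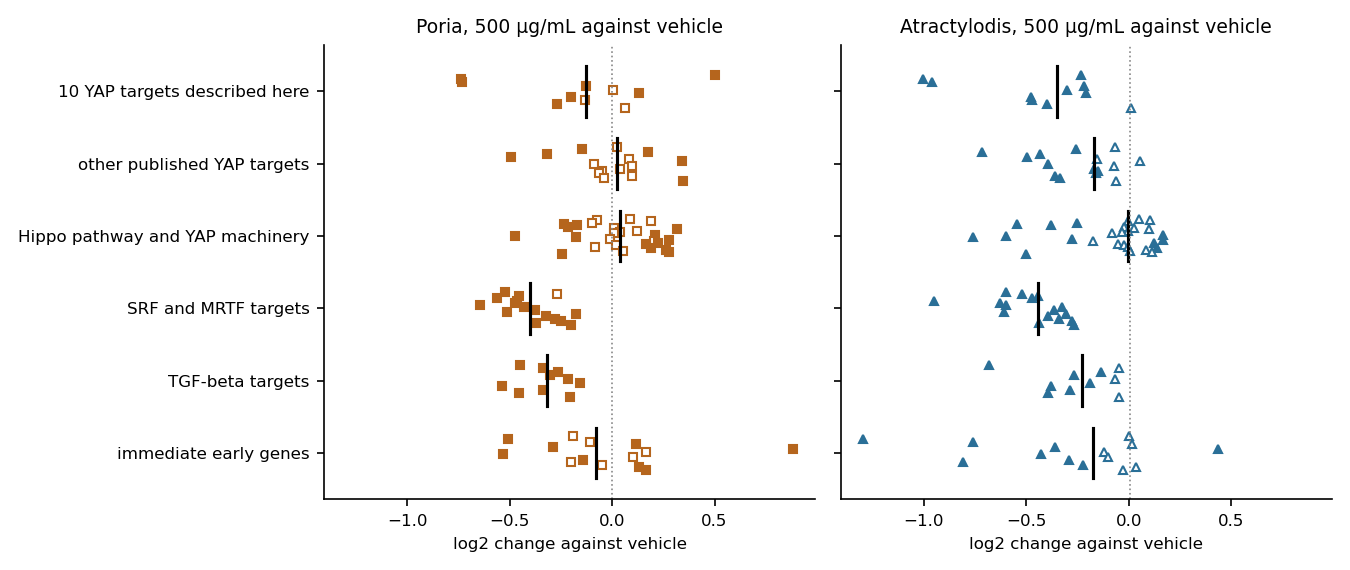
Log2 change at 500 µg/mL against vehicle (horizontal axis) for Poria on the left and Atractylodis on the right; each point is 1 gene of the list named on the vertical axis, filled where the adjusted p is under 0.05, and the black bar is the list's median. The 10 genes spread from -0.74 to 0.50 with Poria and have a median of -0.35 with Atractylodis.

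Markers of other cell types were summed beside these results. The 6 mesenchymal markers summed to 6599 to 6679 CPM in vehicle and 5351 to 6418 CPM in treated libraries. The 9 astrocyte markers, nearly all of it VIM, summed to 5914 to 6225 CPM and 4776 to 5480 CPM, so both sums were lower in treated libraries along with CCN2 and ANKRD1, and their part in these results was not tested. The lists did not move as a whole. Of the 5 astrocyte markers tested, VIM and SOX9 were lower and SLC1A3 higher in treated than in vehicle libraries, with a median of 0.21, and NES rose with Atractylodis. Of the 6 mesenchymal markers COL1A1 and THY1 were lower in treated libraries, and COL1A2 was higher with Atractylodis at 500 µg/mL. The 5 neuronal markers had 172 to 175 CPM in vehicle and 154 to 186 CPM in treated libraries, and the 5 myeloid markers 12.0 to 12.5 and 11.0 to 15.4 CPM. The 4 epithelial markers (0.245 to 0.484 and 0.299 to 0.494 CPM) and the 4 endothelial markers (0.834 to 1.12 and 0.965 to 1.31 CPM) were near 0.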

How the data were processed

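RNA was sequenced as paired reads from MGIEasy RNA Directional libraries, per the labels' protocols. The submitters' processing notes name RSEM 1.3.3, STAR 2.7.3a, Trim Galore 0.6.5 and FastQC 0.11.9 with GRCh38. The authors deposited expected counts of each gene as RSEM gives them, 10.2% of them not whole, and these were rounded here. The table has 279 columns, of which 270 were not used here. Symbols and positions came from GENCODE 29 and the reference name table (57055 genes), and genes with no symbol held 0.0314% to 0.0334% of each library's counts. Promoter sequences came from RefSeq (GRCh38.p14).

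Counts were fitted with edgeR 4.0.16 (R 4.3.3; TMM, filterByExpr with a count minimum of 10, robust quasi-likelihood F test), and p-values were Benjamini-Hochberg adjusted over all 18310 genes tested, with a threshold of 0.05. Fits were a line per extract over the dose steps from vehicle, treated against vehicle, a line within the treated libraries, 7 groups, and extract with dose as a block. CPM used TMM factors, and TPM used the union exon length. The vehicle pairs differed by more than sampling noise (chi-square per degree of freedom 2.46 to 3.44). Code was tested on simulated data. Alternatives were RLE scaling, no or a stricter filter, DESeq2 1.42.0, limma-voom 3.58.1, a GC and length correction, dose itself in place of the step, leaving out each library and, added later, library totals only. Named genes were all 10 members and, from each list of related genes, up to 4 with the smallest p in either dose trend. HBEGF, YAP1, WWTR1, TEAD2, TEAD3, TEAD4 and the genes most like CCN1 and CCN2 were named outside that rule. The members and lists were chosen with earlier results of these data known.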

Additional observations from a re-analysis of the deposited data

Results flagged for a closer look

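CCN1 was flagged because its slope differed between the extracts by the test of the difference itself. The Poria slope minus the Atractylodis slope was 0.22 per dose step on the log2 scale (SE 0.03, edgeR adjusted p = 0.00317), with Poria libraries above and Atractylodis libraries below vehicle at each of the 3 doses. The size of the difference moved with the top dose of Poria: without that library it was 0.15 (adjusted p = 0.118), in a fit that called 0 of all genes tested. CCN1 was still higher with Poria at 20 and 100 µg/mL, by 0.29 and 0.25.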

How the results depend on the processing

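Each of the 10 genes was recomputed under each alternative in each comparison. Of 1460 such values 1380 kept their side of the threshold, 53 lost the call, 27 gained one and 0 called values changed sign. DESeq2 gave no adjusted p for 10 more. The 1380 include values that were not called and changed sign. For example, CCN1 in treated against vehicle libraries ranged from -0.05 to 0.13 over the alternatives. Dose itself in place of the step left 1 gene called for the Poria trend (CCN1), 0 for Atractylodis and 1 within the Poria libraries (CCN1). With library totals only, 5 genes were called for the Atractylodis trend. Without a filter 3 were called for the difference between trends, 1 within the Poria libraries and 2 at matched doses. DESeq2 called 2 genes for the difference (CCN1 and AJUBA) and 4 for Poria at 500 µg/mL. Leaving out 1 library gave 4 to 6 genes called for the Poria trend, 4 to 8 for Atractylodis, 0 to 2 for their difference, 5 to 6 between treated and vehicle libraries, 0 to 1 within Poria and 0 to 4 within Atractylodis. It gave 5 to 8 for Poria and 9 for Atractylodis at 500 µg/mL, and 0 to 1 at matched doses. Over all genes, the calls ranged under these alternatives from 127 to 4282 for the Poria trend (3818 as reported), 67 to 4296 for Atractylodis (3500), 0 to 555 for the difference (211) and 2986 to 5370 for treated against vehicle libraries (4639). They ranged from 16 to 684 within Poria (449), 102 to 1199 within Atractylodis (742), 1486 to 6305 and 1579 to 6265 at 500 µg/mL of Poria and Atractylodis (5796 and 5700), and 3 to 303 at matched doses (9). The cause was not tested.

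No paired analysis was possible because the groups share only replicate number 2, and the dose block at matched doses pairs doses and not replicates. ANKRD1 had the fewest counts of the 10 genes (308 to 608) and the largest SE at 500 µg/mL (0.09 and 0.10, against 0.04 to 0.06 for the others).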

Other observations

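The other members of the CCN family did not follow CCN2. CCN4, a secreted target of WNT signalling, had 8.52 ± 0.10 CPM (SD, n = 3) in vehicle and 9.49 to 11.6 CPM in the treated libraries (0.30 higher, edgeR adjusted p = 0.00385). CCN3 rose with Atractylodis by 0.13 per step (adjusted p = 0.019), from 8.82 ± 0.82 CPM to 11.8 CPM at 500 µg/mL, and its slope with Poria was -0.05 (0.369). The slopes of CCN3 differed by 0.18 in the direction opposite to CCN1 (Poria minus Atractylodis -0.18, adjusted p = 0.0333). CCN5 and CCN6 stayed under 1 CPM and were not called.

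Of 14 immediate early genes, which serum factors switch on within minutes, 2 rose and 2 fell with Poria, and 1 rose and 6 fell with Atractylodis. Of all genes 9.19% rose and 11.7% fell with Poria and 8.54% rose and 10.6% fell with Atractylodis. EGR1 rose with both, from 19.8 ± 1.49 CPM to 36.4 CPM with Poria and 26.7 CPM with Atractylodis at 500 µg/mL (0.27 and 0.16 per step, edgeR adjusted p = 0.000118 and 0.00523). JUNB fell with both by 0.11 and 0.12 per step (0.00462 and 0.00408). EGR3 fell with Poria, and MYC fell with Atractylodis.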
